A study of Coturnix japonica with 42 samples.

Results

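The 10 genes described here encode chaperones and folding enzymes of the endoplasmic reticulum. They were measured in the mediobasal hypothalamus of Japanese quail (Coturnix japonica) across 1 short day and the 2 long days after it. The genes are HSPA5, HSP90B1, HYOU1, DNAJB11, CALR, CANX, PDIA3, PDIA4, PDIA6 and CRELD2. Their probe sets were taken by gene symbol from the annotation of the array platform. All 10 genes were on the array, among 13009 genes with a symbol of their own, with 17 of the 38439 probe sets that are not controls. A probe set was tested if 2 or more arrays had it above that array's median signal. All 17 passed, among 32057 in all. Each gene is represented by its brightest probe set, and the further probe sets of 6 genes are described separately.

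All birds were males of 8 weeks that had lived for 4 weeks with 6 h of light and 18 h of dark. They stayed on that schedule for the short day and were then given 20 h of light and 4 h of dark. No other treatment or genotype is named in the labels. At each of 21 time points 6 birds were sampled and each array received the pooled RNA of 3 of them, so the 2 arrays of a time point are separate pools and n counts pools. The short day was sampled at 2, 6, 10, 14, 18 and 22 h, the first long day at 26, 30, 34, 36, 38, 40, 42, 44 and 46 h, and the second long day at 50, 54, 58, 62, 66 and 70 h. The labels give these times as numbers only. They are taken here to count hours since lights-on of the short day, and the hour of lights-on is not stated. Under that reading the light of the short day went off at 6 h, so the 6 h sample lies at lights-off. By it the 44 h sample also lies at lights-off, and of the long-day samples 46 and 70 h lie in the dark. The arrays carry chicken sequence, so a mismatch to quail RNA can dim a probe set, and levels are not compared between genes.

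Signal is the deposited intensity after each array was scaled to a common trimmed mean. Before scaling, the trimmed means ran from 25.15 to 40.75, with medians of 34.2 on the short day, 33.49 over the 6 matched hours of the first long day and 28.12 on the second. The second array of 62 h stood apart, with a median correlation of 0.812 to all other arrays against 0.879 to 0.905 for the rest. Member results that use 62 h are therefore given with and without it where they are tested below. TSHB, the beta subunit of thyrotropin and the known early response to a long day, served as a check of the time labels. Its mean signal was 2.516 to 9.537 on the short day, peaked at 152.7 at 40 h and reached 106 at 66 h. Mean signals of the neuronal markers ran from 20.78 for GAD1 to 6232 for SNAP25. Of the anterior pituitary markers CGA (923), CHGA (322.6) and POMC (162.1) were the brightest. TSHB (36.22 over all arrays), PRL (19.47), PITX1 (18.88), GH (12.85), POU1F1 (6.219) and FSHB (3.219) had lower signals. A mismatch to quail RNA can dim a probe set, so these signals do not compare the amount of RNA between genes.

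Proteins that are secreted or placed in membranes fold inside the endoplasmic reticulum. HSPA5 (BiP) is its chaperone of the Hsp70 type and binds unfolded chains. HSP90B1 (GRP94) is its chaperone of the Hsp90 type. HYOU1 is a large Hsp70-like protein that exchanges the nucleotide of HSPA5, and DNAJB11 is a J-domain partner that delivers clients to it. CALR and CANX are the soluble and the membrane-bound lectin chaperones that hold glycoproteins. PDIA3 is the disulfide isomerase that works with these lectins. PDIA4 and PDIA6 are further disulfide isomerases, and CRELD2 is a resident protein of the same compartment. In mammals many of these genes are induced together in the unfolded protein response, in which misfolded protein activates the sensors ATF6, ERN1 and EIF2AK3. Hypothalamic neurons and pituitary cells make peptide and glycoprotein hormones through this route.

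The main pattern lay in the short day. HSPA5 and HSP90B1 were high at 2 and 6 h and fell, 1.77-fold and 1.68-fold, to the mean of 10 to 22 h. On the first long day HSP90B1 was 1.53-fold above its short-day level at the matching late hours. On the second long day HSPA5 and PDIA3 were 1.32-fold and 1.39-fold above theirs. These calls of the second long day were lost without scaling of the arrays, with median centring, with no variance trend and with array brightness as covariate. They were also lost when certain arrays were left out. The calls of HSP90B1 and that of PDIA3 were lost when the probe sets of each gene were averaged. With the scaling and fit used here, the other 7 genes did not pass the threshold, an adjusted p of 0.05 over all probe sets, in any of the comparisons below. Some of them, such as CALR, passed it with no scaling.

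**Figure D1:**
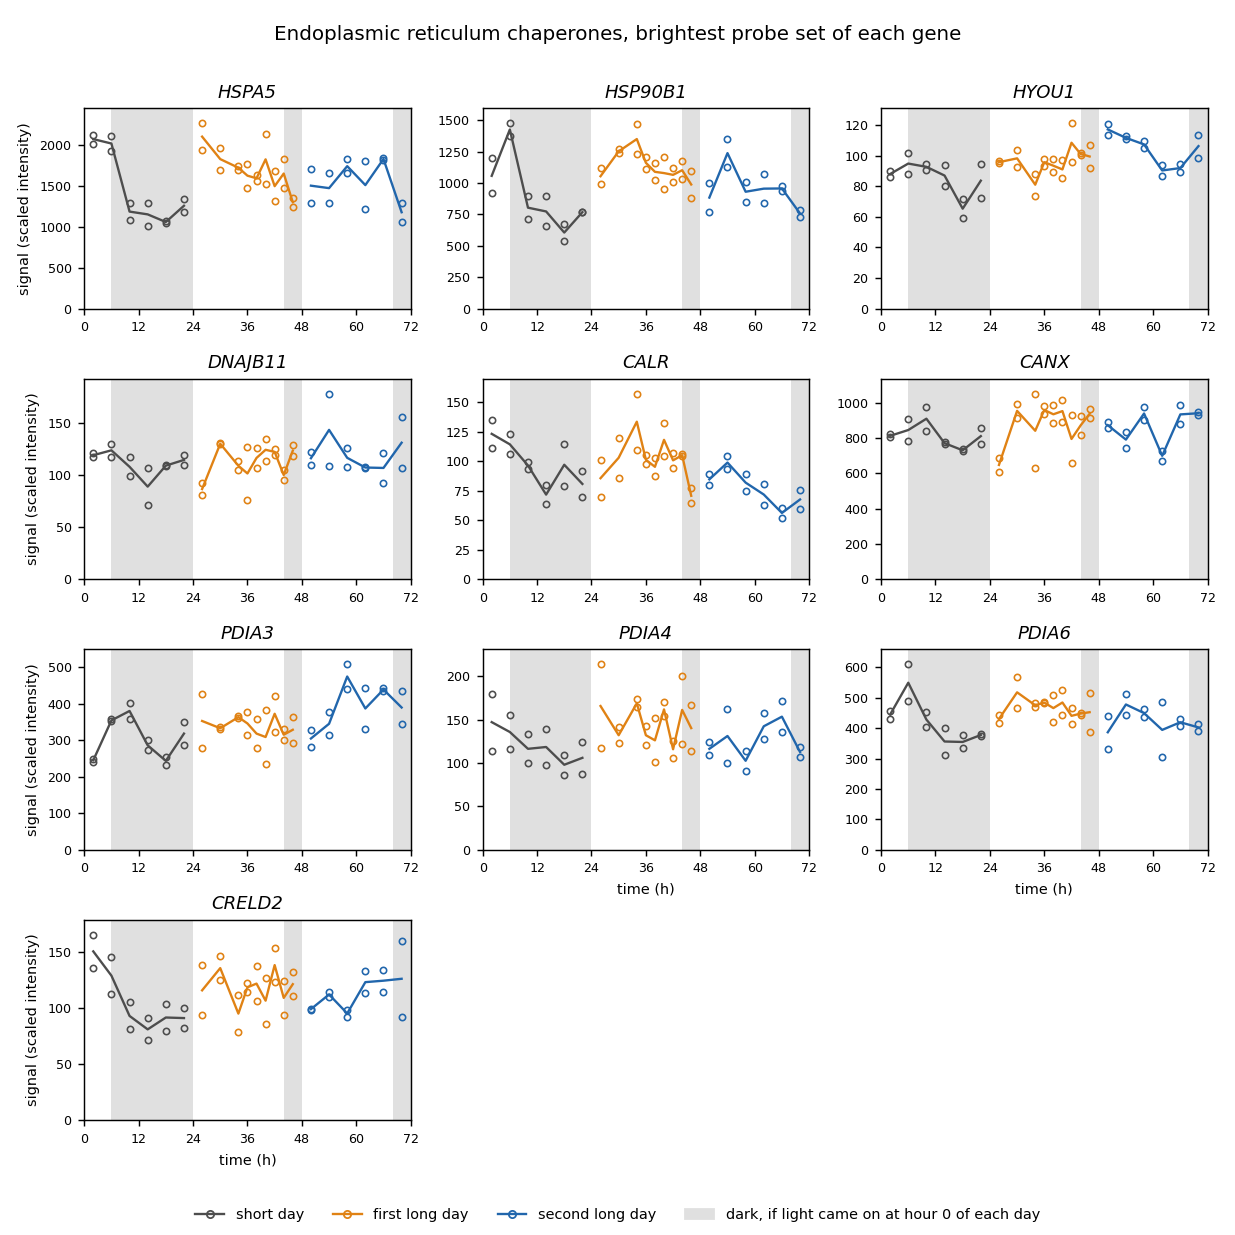
Signal (scaled intensity, linear axis from 0) of the brightest probe set of each gene against time in hours. Circles are single arrays (2 per time point), lines join the means within a day, and grey marks dark hours if the light came on at hour 0 of each day. HSPA5 and HSP90B1 are lower from 10 h of the short day on, while HSP90B1 reads 1467 and 1233 at 34 h of the first long day.

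HSPA5, the Hsp70 chaperone, had short-day signals of 2011 and 2123 at 2 h and 2106 and 1920 at 6 h. At 10 h they were 1079 and 1287, at 14 h 1287 and 1011, at 18 h 1074 and 1038, and at 22 h 1178 and 1331. The 4 arrays of 2 and 6 h thus lay above all 8 arrays of 10 to 22 h, as was seen in 0.309% of all probe sets. The means were 2040 ± 93.86 (SD, n = 4) and 1161 ± 127 (SD, n = 8), where each SD spans the hours as well as the pools. HSPA5 was 1.77-fold lower at 10 to 22 h (log2 difference -0.82, SE 0.111, limma adjusted p = 7.7e-05). In pooled tissue, fewer cells of a type and less RNA per cell cannot be told apart.

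HSP90B1, the Hsp90 chaperone, had signals of 917 and 1198 at 2 h and of 1476 and 1376 at 6 h, its highest mean of all 21 time points. The arrays of 10 h read 892.9 and 714.3, those of 14 h 893.4 and 653.9, those of 18 h 675.7 and 535.3, and those of 22 h 767.9 and 768.2. Here too the groups did not overlap, with 917 as the lowest early and 893.4 as the highest late value. The share of all probe sets with such non-overlap was again 0.309%. The means were 1242 ± 245.2 (SD, n = 4) and 737.7 ± 121 (SD, n = 8), a 1.68-fold lower level late in the day (log2 difference -0.75, SE 0.107, limma adjusted p = 1.34e-04). Only 0.0561% of all tested probe sets were called lower in this comparison, and 2 of the 10 genes were. With only the short-day arrays in the fit, the adjusted p of HSP90B1 was 0.059.

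CRELD2 had the same order of arrays without passing the threshold. Its signals were 112 to 165.2 at 2 and 6 h (median 140.6) and 71.11 to 105 at 10 to 22 h (median 86.52), with no overlap. The log2 difference was -0.65 (SE 0.154) with a limma adjusted p of 0.185. Non-overlap in this direction was seen in 0.309% of all probe sets. CALR had means of 118.8 and 86.51 and a log2 difference of -0.48 (adjusted p = 0.747). PDIA6 had means of 497.3 and 379.2 (-0.39, adjusted p = 0.559) and PDIA4 of 141.5 and 109.7 (-0.36, adjusted p = 1). The arrays of these 3 genes overlapped between the groups. HYOU1, DNAJB11, CANX and PDIA3 had intervals that include 0. Their mean signals at 2 and 6 h were 91.38, 121.2, 828.7 and 300.1, against 82.13, 104.9, 805.2 and 307.4 at 10 to 22 h. Over the 10 genes 9 differences were negative with a median of -0.37 log2, where the median of all probe sets was 0.02 and 47.4% were negative. The members were chosen with earlier results of these data known, and all probe sets include many dimmer ones. Counts of members set against all probe sets, here and below, are therefore a description and not a test of the set.

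A joint test of any difference among the 6 hours of the short day called the same pair of genes. HSP90B1 had F = 12.49 (limma adjusted p = 0.00126) and HSPA5 F = 11.41 (adjusted p = 0.00249), while 0.0624% of all probe sets were called. HSP90B1 was lowest at 18 h, 2.38-fold under its 6 h mean, and HSPA5 was lowest at 18 h, 1.96-fold under its 2 h mean. The next largest F was that of CRELD2 at 3.859 (adjusted p = 0.866). PDIA6 followed with 3.664 (adjusted p = 0.93) and PDIA3 with 3.583 (adjusted p = 0.949). The mean signal of PDIA3 was 245.4 at 2 h, highest at 10 h and lowest at 18 h, a 1.56-fold range.

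On the first long day none of the 10 genes was called for a change from early (26 and 30 h) to late hours (34, 38, 42 and 46 h), against 0.0281% of all probe sets. At an unadjusted p under 0.05 only HSPA5 was counted, and 5.03% of all probe sets. HSPA5 signals were 2261 and 1932 at 26 h, 1955 and 1690 at 30 h, and 1242 to 1744 (median 1589) in the 8 later arrays. These groups overlapped, and the log2 difference was -0.37 (SE 0.111, limma adjusted p = 0.732). HSP90B1 had means of 1153 ± 126.8 (SD, n = 4) and 1123 ± 174.8 (SD, n = 8), which differed by less than either spread. The median difference of the 10 genes was -0.04 log2, in a range from -0.37 to 0.15.

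On the second long day no member was called for the change from 50 and 54 h to 58, 62, 66 and 70 h, against 0.00312% of all probe sets. An unadjusted p under 0.05 was found for 3 of the 10 genes and 6.46% of all probe sets. PDIA3 ran from 282.6 to 377.2 (median 320.7) in the early and from 332.1 to 508.9 (median 438.4) in the late arrays, with a log2 difference of 0.37 (SE 0.123, adjusted p = 0.629). CALR differed the other way, by -0.42 (adjusted p = 0.629), and HSP90B1 by -0.22 (0.77). With the second array of 62 h left out, the 3 differences were 0.43, -0.37 and -0.17, and none was called. HSPA5 had means of 1484 ± 225.8 (SD, n = 4) and 1560 ± 319.4 (SD, n = 8), with an interval of the difference that includes 0, as had the difference without that array (adjusted p = 0.893). In the joint test of hours limma called 0 of the 10 genes on the first long day, against 0.0437% of all probe sets, and 0 on the second, against 0.0499%. At an unadjusted p under 0.05 they numbered 3 on the first long day (HSPA5, CALR and CANX), where 4.55% of all probe sets had one, and 4 on the second (HSP90B1, HSPA5, PDIA3 and CALR), against 9.31%. Without the second array of 62 h the joint test of the second long day again called 0 members, with the same 4 at an unadjusted p under 0.05 against 7.66% of all probe sets.

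The extra samples of the first long day fill in the course. HSPA5 had mean signals of 1718 at 34 h, 1621 at 36 h, 1589 at 38 h, 1820 at 40 h, 1493 at 42 h, 1647 at 44 h and 1298 at 46 h. HSP90B1 had 1350 at 34 h, its highest mean of that day, and then 1161, 1089, 1079, 1065, 1102 and 988.2 up to 46 h. For both genes the lowest mean of the first long day was at 46 h, and that of the second was at 70 h (1175 for HSPA5 and 757.3 for HSP90B1). These are the long-day samples that fall in the dark hours under the reading of times used here. They are given as levels without a test.

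**Figure D2:**
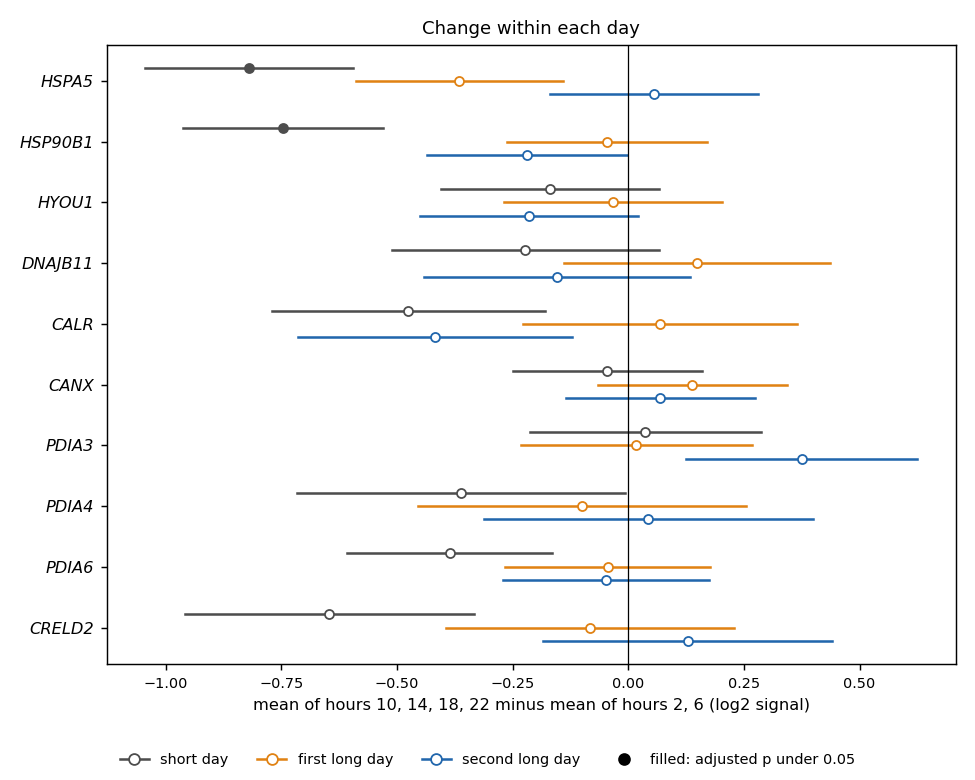
Difference in log2 signal between late hours (10, 14, 18 and 22) and early hours (2 and 6) of each day, with 95% intervals from limma. Filled circles mark an adjusted p under 0.05, which holds for HSPA5 (-0.82) and HSP90B1 (-0.75) on the short day and for no gene on the long days.

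Set against the same hours of the short day, HSP90B1 at 34, 38, 42 and 46 h was 1.53-fold higher, by 0.61 log2 (SE 0.087, limma adjusted p = 1.38e-04). Its 8 arrays ran from 881.8 to 1467 with a median of 1107, and the 8 short-day arrays from 535.3 to 893.4 with a median of 741.1. The ranges touched only between 881.8 and 893.4, and the difference had the same sign at 4 of 4 hours. It was the only member called, where 0.0374% of all probe sets were called higher. With the mean of its 2 probe sets the difference was 0.29 (adjusted p = 0.959). The log2 difference of HSPA5 was 0.39 (SE 0.0902, adjusted p = 0.132), with means of 1525 ± 194.5 and 1161 ± 127 (SD, n = 8 each). CRELD2 differed by 0.41 (adjusted p = 0.558), PDIA4 by 0.32 (0.85), PDIA6 by 0.28 (0.618) and HYOU1 by 0.22 (0.836). All 10 differences were positive, with a median of 0.25 log2, where the median of all probe sets was 0.00 and 50.8% were positive. These comparisons use the same short-day arrays as the fall described above, so a low value there enters both.

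On the second long day the disulfide isomerase PDIA3 was higher at 58, 62, 66 and 70 h than at the same hours of the short day. Its signals were 441.6 and 508.9 at 58 h, 442.9 and 332.1 at 62 h, 434.7 and 444.4 at 66 h, and 435.2 and 345.2 at 70 h. The 8 short-day arrays ran from 233.6 to 403.1 with a median of 293.5. The upper end of that range passed the 2 lowest long-day arrays, so the groups overlapped. The difference was 0.47 log2 (SE 0.1), a 1.39-fold higher level with the same sign at 4 of 4 hours (limma adjusted p = 0.014). Without the second array of 62 h it was 0.52 (adjusted p = 0.0103). The call was lost without the second array of 14 h (adjusted p = 0.0511) or the first of 70 h (0.0589).

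HSPA5 was also higher at those hours, by 0.41 log2 (SE 0.0902, 1.32-fold, limma adjusted p = 0.0211). Its signals were 1821 and 1653 at 58 h, 1797 and 1215 at 62 h, 1809 and 1839 at 66 h, and 1288 and 1062 at 70 h. At 70 h the arrays lay within the short-day range of 1011 to 1331, and 3 of 4 hours had a positive difference. Without the second array of 62 h, which read 1215, the difference was 0.48 (adjusted p = 0.00504). The call was lost without the first array of 10, 22, 58 or 70 h (adjusted p = 0.0764, 0.058, 0.0597 and 0.0742) or the second of 14 or 18 h (0.096 and 0.0597). Of all probe sets 0.215% were called higher here, and 2 of the 10 members were.

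Of the rest, HSP90B1 differed by 0.29 log2 (adjusted p = 0.125), CRELD2 by 0.38 (0.192) and HYOU1 by 0.28 (0.211). CALR was the only member with a negative difference, -0.32 (SE 0.119, adjusted p = 0.295), with means of 69.37 ± 12.58 and 86.51 ± 16.67 (SD, n = 8 each). Its mean was lower at 4 of 4 hours, but at 62 h the log2 difference was only -0.00036, and 0.18 without the second array of that time. The lowest mean of CALR, 56.16, was at 66 h. With the second array of 62 h left out, these 4 genes differed by 0.34 (adjusted p = 0.0922), 0.35 (0.349), 0.29 (0.249) and -0.27 (0.497). The median of the 10 genes was 0.25 log2 against 0.04 for all probe sets, of which 54.6% were positive. The deposited brightness of the arrays was lower on the second long day, as given above, and the calls of this comparison depended on how it was handled. With no scaling, all probe sets shifted by a median of -0.16 log2, PDIA3 differed by 0.25 (adjusted p = 0.256), HSPA5 by 0.19 (0.38) and CALR by -0.54 (0.0265).

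**Figure D3:**
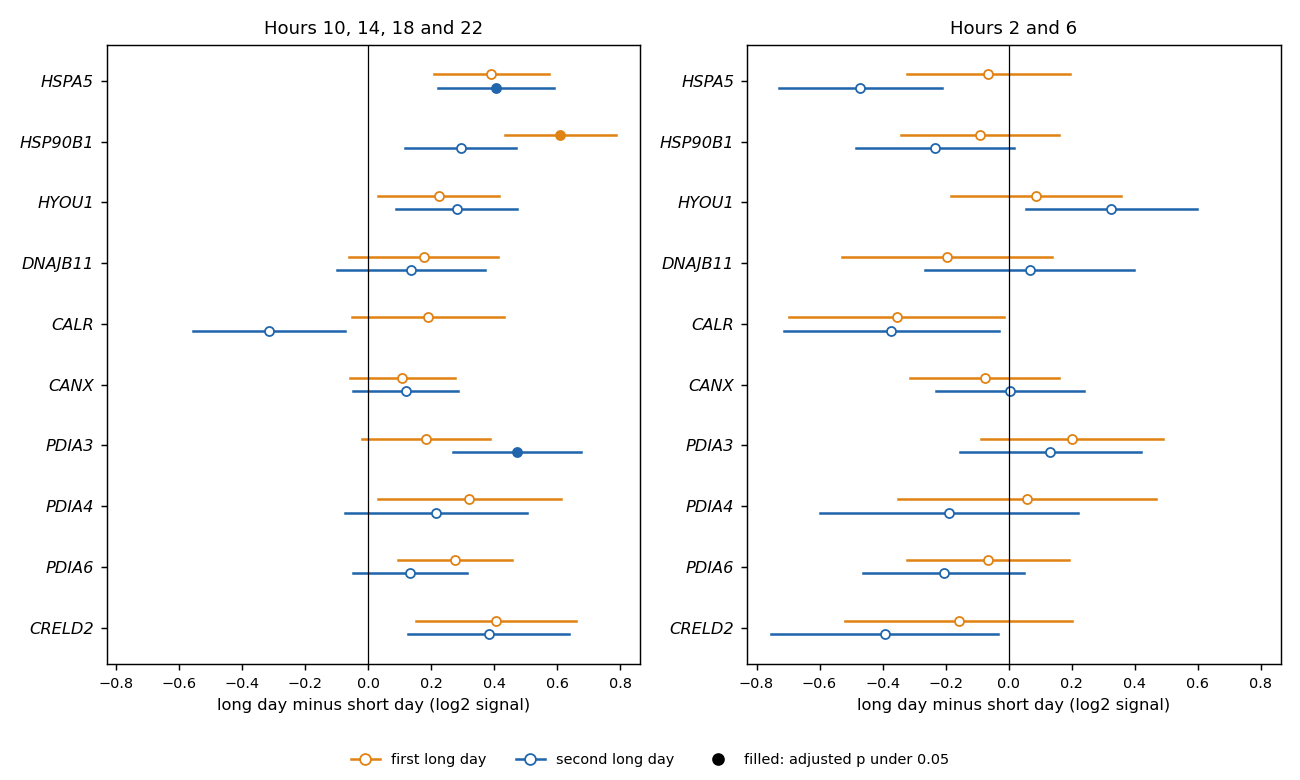
Difference in log2 signal between each long day and the short day at hours 10, 14, 18 and 22 (left) and at hours 2 and 6 (right), with 95% intervals from limma. Filled circles mark an adjusted p under 0.05: HSP90B1 on the first long day (0.61), and HSPA5 (0.41) and PDIA3 (0.47) on the second.

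In the early hours no member was called. Under that reading these hours lie in the light, except that 6 h of the short day lies at lights-off. On the first long day 0.00312% of all probe sets were called at 26 and 30 h against 2 and 6 h, and 1 of the 10 genes had an unadjusted p under 0.05, where 5.32% of all probe sets did. It was CALR with -0.36 log2 (adjusted p = 0.926). At 50 and 54 h of the second long day 0.125% of all probe sets were called and 4 of the 10 genes had an unadjusted p under 0.05, against 7.64% of all probe sets. HSPA5 then read 1291 and 1707 at 50 h and 1288 and 1650 at 54 h, all under 1920, the lowest value at 2 and 6 h of the short day. Its log2 difference was -0.47 (SE 0.128, limma adjusted p = 0.19). With quantile normalization the same comparison gave -0.50 (adjusted p = 0.0386), and with no scaling -0.82 (9.3e-04), where the median of all probe sets was -0.26. CALR (80.21 to 104.8 against 105.9 to 134.9) did not overlap between the days either, at -0.37 log2 (adjusted p = 0.62). HYOU1 did not overlap in the other direction (110.7 to 120.8 against 86.01 to 101.6), at 0.33 (adjusted p = 0.541). With 4 arrays against 4, non-overlap was seen in 1.85% of all probe sets for lower and 2.31% for higher levels.

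The change within a day was compared between days directly. From early to late hours HSPA5 changed by -0.82 log2 on the short day and by 0.06 on the second long day. The difference between these changes was 0.88 (SE 0.156, 1.84-fold, limma adjusted p = 0.0191), and 0.0156% of all probe sets were called. The value was 0.95 (adjusted p = 0.00263) without the second array of 62 h. The call was lost when any of 8 arrays was left out. The adjusted p was then 0.0529 and 0.0599 without the first or second array of 2 h, 0.134 and 0.0515 for those of 6 h, and 0.0514, 0.202, 0.112 and 0.0577 without the first array of 22, 50, 54 or 70 h. The other values for the second long day were 0.77 for CRELD2 (adjusted p = 0.681), 0.53 for HSP90B1 (0.699) and 0.34 for PDIA6 (0.89), and 0.75, 0.57 and 0.42 without that array. In the same test for the first long day no member was called, against 0.00624% of all probe sets. HSP90B1 came nearest with 0.70 (SE 0.151, unadjusted p = 4.46e-05, adjusted p = 0.238), followed by CRELD2 with 0.56, CALR with 0.54, HSPA5 with 0.45 and PDIA6 with 0.34, of which each had an adjusted p of 0.999. For HSP90B1 the late level thus differed between these days past the threshold, and the change within the day did not.

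The long days were compared with each other over 6 matched hours, which uses no short-day array. No member was called, against 0.0905% of all probe sets, and 3 of the 10 had an unadjusted p under 0.05, against 7.86% of all probe sets. HSP90B1 had means of 953.6 ± 177.2 and 1133 ± 155.1 (SD, n = 12 each), with a log2 difference of -0.26 and the same sign at 6 of 6 hours (adjusted p = 0.188). CALR differed by -0.34 (5 of 6 hours, adjusted p = 0.226) and PDIA3 by 0.17 (5 of 6 hours, adjusted p = 0.626). These 3 differences were -0.23, -0.31 and 0.20 without the second array of 62 h, and none was called. Against single hours of the short day, 12 comparisons were made and no member was called in any. At 26, 30, 34, 38, 42 and 46 h the share of all probe sets called was 0.00312%, 0%, 0%, 0.00312%, 0.0406% and 0.0374%. At 50, 54, 58, 62, 66 and 70 h it was 0.0218%, 0.025%, 0.0187%, 0.0686%, 0.0343% and 0.0281%. Without its second array 62 against 14 h also called no member. At 66 against 18 h 7 of the 10 genes had an unadjusted p under 0.05, the most of any hour, where 6.55% of all probe sets had one. The differences at that hour went both ways, 8 positive and 2 negative, from -0.77 to 0.85 log2.

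**Figure D4:**
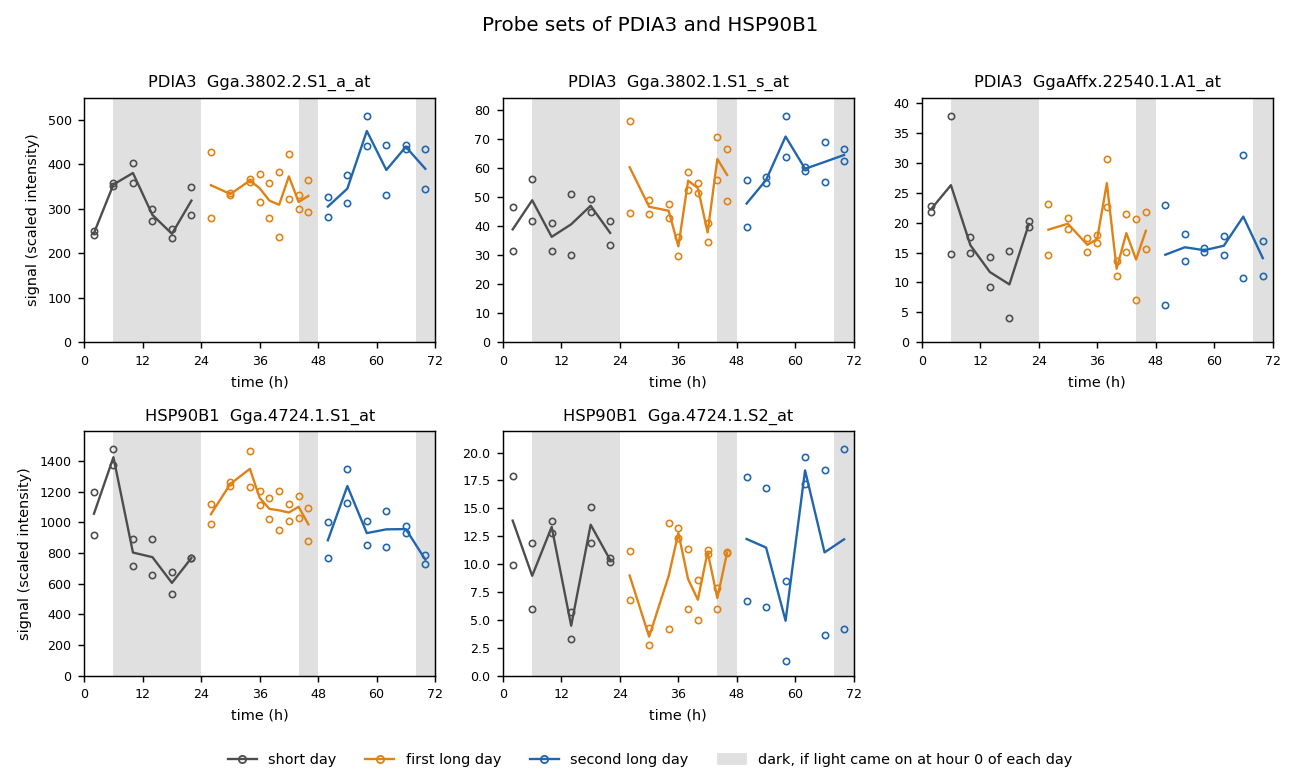
Signal (scaled intensity, linear axis from 0) against time for the 3 probe sets of PDIA3 and the 2 of HSP90B1, with circles for single arrays, lines for means and grey for dark hours as read here. A second PDIA3 probe set is higher on the second long day, with all late arrays between 55.23 and 78, while the second HSP90B1 probe set is dim (mean 10.17) and scatters.

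Of the 10 genes 6 had more than 1 probe set, and these agreed little with each other. HSP90B1 has a second probe set with a mean signal of 10.17, and over the 42 arrays its correlation with the brightest was r = -0.216. It was not called in any comparison, so the calls of HSP90B1 rest on 1 probe set. For PDIA3 a second probe set, with a mean signal of 50.66 and a correlation of 0.371 with the brightest, was called in the same comparison as the brightest. At the late hours of the second long day it ran from 55.23 to 78 with a median of 63.15, and on the short day from 30.07 to 51.26 with a median of 41.48, with no overlap. The difference was 0.69 log2 (1.61-fold, limma adjusted p = 0.0138), and 0.0499% of all probe sets had non-overlapping arrays in that direction. Without the second array of 62 h the difference was 0.69 (adjusted p = 0.0359). The third PDIA3 probe set, with a mean signal of 17.37 and a correlation of 0.142, was not called. For CRELD2, PDIA4, HYOU1 and CANX the second probe sets had correlations of -0.0404, 0.0137, 0.156 and 0.197 with the brightest and none was called. When all probe sets of a gene were averaged, HSP90B1 was not called in the short-day fall (-0.45, adjusted p = 0.999). Nor was PDIA3 then called at the late hours of the second long day. HSPA5 has a single probe set, so averaging left its values as they were.

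As a set the genes varied together only in part. Over the 21 time-point means the 45 pairs had a median correlation of r = 0.32, from -0.382 (PDIA3 with CALR) to 0.888 (HSP90B1 with PDIA6), and 40 were above 0. HSPA5 and HSP90B1 had r = 0.764. Against the mean of the other members PDIA6 had r = 0.884 and HSP90B1 0.839, while HSPA5 had 0.656 and PDIA3 0.199. These values describe the courses only, since their points share arrays and scaling.

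**Figure D5:**
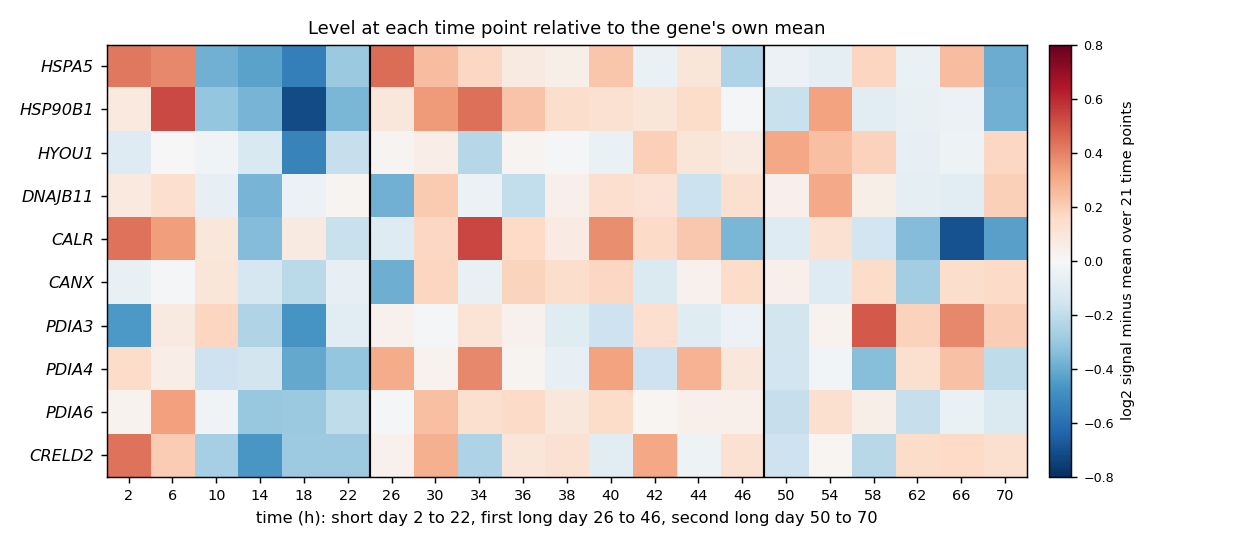
Mean log2 signal at each of the 21 time points (columns, in hours) minus the gene's own mean, for the brightest probe set of each gene (rows), with black lines between days. HSPA5, HSP90B1, PDIA6 and CRELD2 are low from 10 to 22 h. CALR is lowest at 66 h and PDIA3 highest at 58 h.

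Among 12301 other genes, the course most like the mean of the 10 members was that of HSP90AA1, the cytosolic Hsp90 (r = 0.805 over 21 time-point means). AHSA1, which activates cytosolic Hsp90, had 0.748 and DNAJA1, a cytosolic J-domain chaperone, 0.734. Of the remaining 7 genes in the first 10, CRY1 (0.74) is a circadian repressor, CGA (0.75) the common alpha subunit of the pituitary glycoprotein hormones, and AVPR2 (0.76) a vasopressin receptor. GNMT (0.8), NCAPD3 (0.75), AXL (0.734) and EGLN1 (0.714) complete the list. P4HB and the measured sensors of the unfolded protein response were not among these 10 genes, and their own correlations are not given here. Whether that response has a part in these courses was not tested.

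Other genes of the compartment were counted from lists by function. Of 31 measured folding helpers and oxidoreductases none was called in the short-day fall, with 16 positive and 15 negative differences and a median of 0.03 log2. The smallest p belonged to ERO1B, an oxidase that recharges the disulfide isomerases, at -1.21 log2 (adjusted p = 0.862), and to SERPINH1, a collagen chaperone, at -0.86 (1). On the second long day P4HB, the founding disulfide isomerase, was called higher at the late hours (0.54 log2, SE 0.125, limma adjusted p = 0.0275), as 1 of the 31. Its call was lost without the second array of 62 h (0.54, adjusted p = 0.0645). On the first long day its difference was 0.37 (adjusted p = 0.659), and none of the 31 was called.

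The 17 measured sensors and factors of the unfolded protein response had 11 positive and 6 negative differences in the short-day fall and none was called. XBP1, the factor that ERN1 activates by splicing, differed by -0.55 log2 (adjusted p = 0.742) and ATF4 by -0.18 (1). None of the 17 was called on the first or the second long day, where the smallest p values were those of CEBPB at 0.56 (adjusted p = 0.514) and of MBTPS2 at -0.17 (0.521). Of 19 measured genes of the degradation route, which removes misfolded proteins, 14 had negative differences in the short-day fall and none was called, with HERPUD1 at -0.62 (adjusted p = 0.986). None of the 28 genes of translocation and glycosylation, the 27 of transport to the Golgi or the 11 of calcium handling was called in the fall or at the late hours of the long days.

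Of 26 measured cytosolic heat shock genes 4 were called lower in the short-day fall. They were BAG3, an Hsp70 cofactor, at -0.82 log2 (limma adjusted p = 4.26e-05), HSPA2, an Hsp70, at -1.34 (5.72e-05), DNAJA1 at -0.65 (7.7e-05) and DNAJA4 at -0.90 (1.75e-04). BAG3 and HSPA2 were also called lower within the first long day, at -0.67 (adjusted p = 0.00326) and -1.06 (0.00462), where no member of the endoplasmic reticulum was. At the late hours of the second long day DNAJA1 was called higher by 0.32 (adjusted p = 0.02), and by 0.38 (0.0045) without the second array of 62 h. At 50 and 54 h DNAJA4 was called lower by -1.07 (adjusted p = 1.96e-04) and HSPA2 by -0.91 (0.0486). None of the 6 measured cold-inducible RNA-binding genes was called in these comparisons. The difference between the lists was not tested.

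Markers of other cells moved with these results in part. The anterior pituitary list has 12 genes, of which 9 are on the array, 8 passed the filter and none was at the floor on all arrays. Their summed signal was 1131 to 1647 at 2 and 6 h of the short day and 645.8 to 1659 (median 957.1) at 10 to 22 h. At the late hours it was 1259 to 1985 on the first and 1538 to 2334 on the second long day. CGA, its brightest gene, fell within the short day by 1.09 log2 (limma adjusted p = 1.32e-04) and was the only one called. Of the 8 measured genes 5 had positive and 3 negative differences in that fall, with a median of 0.04 log2. The tanycyte and ependymal list (7 of 10 genes past the filter), led by VIM, summed to 1391 to 2208 on the short day, 1659 to 4051 on the first and 2162 to 5901 on the second long day. At the late hours of the first long day all 7 had positive differences from the short day and 1 was called, DIO2 at 1.04 log2 (adjusted p = 7.81e-04). On the second 5 differences were positive and 2 negative, and 2 genes were called, DIO2 at 1.63 and VIM at 0.60. Of 9 measured liver markers 2 were called lower at these hours, ALB (-3.06 and -2.82 log2 on the first and second long day) and LBFABP, with list medians of -0.48 and -0.15. Of 6 measured choroid plexus markers TTR was called lower, by -1.87 and -1.32. The other 5 had positive differences on both long days, with list medians of 0.05 and 0.21. The summed neuronal markers ran from 14290 to 16350 on the short day and from 13430 to 18360 on the second long day. The ratio of 3' to 5' GAPDH signal, a measure of RNA integrity, had medians of 1.216 at 2 and 6 h and 1.184 at 10 to 22 h of the short day. The same ratio for actin was higher and differed the other way, with medians of 7.216 (6.777 to 8.301) and 7.798 (6.305 to 9.037). The part of these shifts in the chaperone results was not tested.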

How the data were processed

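The authors deposited linear signal intensity for each probe set, made with GCOS 1.2 per the submitters' processing notes. The chicken arrays received biotin-labelled cRNA from 5 µg of pooled total RNA per the labels' protocols. Each array was scaled to a 2% trimmed mean of 32.42 (factors 0.796 to 1.29), controls (96) were left out, values under 3.509 were raised to that floor, and log2 was taken. One limma 3.58.1 model (R 4.3.3) held a mean for each of 21 time points (21 residual degrees of freedom, variance trend). Tests were two-sided and adjusted by Benjamini-Hochberg over 32057 probe sets. With 2 arrays per time point, the number of arrays limits precision.

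The members and gene lists were chosen with earlier results of these data known. Named are all members, for each other list the genes past the threshold (up to 4) or else up to 2 with the smallest p, the 10 most alike courses, and markers. The script was tested on simulated data. Deviations of same-numbered arrays correlated between -0.0354 and 0.0375 over 210 pairs of time points, so the numbers do not pair the arrays. Alternatives concerned scaling, floor, filter, variance model, arrays in the fit, probe set choice and leaving out each array. Sequences and coordinates were not used here, so planned descriptions of promoters and retention signals were not made.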

Additional observations from a re-analysis of the deposited data

Results flagged for a closer look

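The early-to-late change differed between the short day and a long day, by a test of the difference itself over all probe sets, for 1 of the 10 members and 3 genes named beside them. Of all probe sets 0.0156% were called for the second long day and 0.00624% for the first. HSPA5 changed by -0.82 log2 on the short day and by 0.06 on the second long day, a difference of 0.88 (SE 0.156, limma adjusted p = 0.0191). In the same comparison the cytosolic J-domain chaperones DNAJA1 and DNAJA4 differed by 0.73 (SE 0.124, adjusted p = 0.0169) and 1.05 (SE 0.186, adjusted p = 0.0191), and the pituitary subunit CGA by 1.71 (SE 0.219, adjusted p = 1.03e-04). Early and late levels both enter such a difference. Against the short day, HSPA5 and DNAJA1 were called higher at the late hours of the second long day. At the early hours HSPA5 was lower by -0.47 log2, without a call (limma adjusted p = 0.19). DNAJA4 was not called at the late hours, but was called lower at the early hours. CGA also differed between the first long day and the short day, by 1.21 (SE 0.219, adjusted p = 0.0475). All of these share the short-day arrays, and the values for the second long day include the second array of 62 h. The call of HSPA5 was lost under 5 of 14 other settings and in 8 of 42 fits that each left out a single array. Outlying arrays could not be tested within time points of 2 arrays.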

How the results depend on the processing

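In the short-day fall HSPA5 kept its call under all 14 other settings, of which the mean of probe sets cannot change its values, and HSP90B1 under 12. The number of members called, 2, was 1 with only the short-day arrays in the fit and 1 with the mean of all probe sets, and 2 whichever array was left out. For the first long day at the late hours the count of 1 became 2 with quantile normalization (HSPA5, adjusted p = 0.00736) and 0 with the mean of all probe sets. For the second long day the count of 2 became 1 with no scaling, where HSPA5 and PDIA3 lost their calls. The 1 member called there was CALR, which was lower (-0.54, limma adjusted p = 0.0265), while the calls over all probe sets rose from 196 to 1165. The count became 0 with median centring, 0 with no variance trend and 1 with array brightness as covariate (HSP90B1). It became 3 with quantile normalization (HSP90B1 added, 0.37, adjusted p = 0.016). It was 1 with the mean of all probe sets (HSPA5, as PDIA3 lost its call), and 0 to 2 when arrays were left out. At the early hours of the second long day the count of 0 became 4 with no scaling and 1 with quantile normalization, and against the first long day 4 with no scaling. Over all probe sets, no scaling raised the calls from 40 to 984 in the former comparison and from 29 to 945 in the latter. For the change on the second long day set against that of the short day the count of 1 became 0 with median centring, no filter, no variance trend, only the days compared, or the mean of probe sets, and 0 to 1 when arrays were left out. The joint test of the short day called 1 member in place of 2 with no scaling, median centring or the mean of probe sets, 0 with no variance trend, and 1 to 2 when arrays were left out, 1 without the first array of 6 h.

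Signs turned for 4 uncalled values: at the early hours of the second long day CRELD2 (0.13, mean of probe sets) and HYOU1 (-0.028, no scaling), and against the first long day HSP90B1 (0.015, mean of probe sets) and PDIA3 (-0.028, no scaling). Of 61 differences whose interval included 0, 37 changed sign under some setting and 3 were called under one. The causes were not tested. Counts over all probe sets ranged from 8 to 23 (main 20) for the short-day fall, 8 to 22 (18) for the first and 52 to 1165 (196) for the second long day at the late hours, 8 to 984 (40) at the early hours of the second, and 9 to 945 (29) between the long days. The highest of the last 3 came with no scaling. Leaving out arrays gave 102 to 557 for the second long day, with 557 without the first array of 62 h and 107 without the second. The joint test of that day gave 10 to 546, with 546 without the first array of 62 h and 17 without the second. The remaining counts ranged from 0 to 14 (1) for the early hours of the first long day, 0 to 11 (9) and 0 to 7 (1) for the changes within the first and second long day, 0 to 8 (5) and 0 to 2 (2) for the differences of changes on the second and first, and 11 to 29 (20), 9 to 32 (14) and 3 to 115 (16) for the joint tests of the 3 days. With the replicate number as a block, the calls were 2 members in the short-day fall (HSP90B1, adjusted p = 4.11e-05), 1 on the first and 2 on the second long day, and no call changed. Dim probe sets limit what the second probe sets can show.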
